A study of Mus musculus with 49 samples.

Results

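The immunoglobulin heavy chain variable (Ighv) segments were taken from a table of 43309 genes measured by poly(A) RNA-seq in 49 mouse kidneys, and 62 of the 91 Ighv rows annotated as functional variable genes made up the members. A row was a member when its value was at least 1 FPKM (sequenced fragments scaled to transcript length and to library depth) in at least 3 kidneys, so expression itself chose the members. Of the 62 members, 34 would have qualified without the kidneys taken 6 and 12 months after injury, and 28 qualified only with them. The lowest members by their third-highest value were Ighv2-6-8 at 1.39 FPKM, Ighv2-6 at 1.42 FPKM and Ighv11-2 at 1.42 FPKM, and the nearest rows outside were Ighv3-5 at 0.957 FPKM, Ighv8-5 at 0.954 FPKM and Ighv3-4 at 0.873 FPKM. The 29 rows outside the threshold carried little of the signal, since members made up between 85.8% and 100% of the summed Ighv level in each kidney. For that reason the summed level, the evenness of segment use and the family shares below were computed over all 91 rows, which the threshold did not shape.

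All mice were males of the C57BL/6NCrl strain. Ischemia-reperfusion injury (IRI) was made at 10 to 12 weeks of age by clamping both renal pedicles for 21 min, and kidneys were taken 2, 4, 24, 48 or 72 hours, 7, 14 or 28 days, or 6 or 12 months later (IRI2h to IRI12m, 3 kidneys each and 4 in IRI6m). Sham kidneys came from mice operated on without clamping and taken after 4 hours, 24 hours or 12 months (SHAM4h, SHAM24h and SHAM12m, 3 each), and unoperated controls were 3, 9 or 15 months old (NORM3m, NORM9m and NORM15m, 3 each). In SHAM12m, 1 kidney carries a source label of injured kidney beside a title and surgery label of sham, and was kept as sham (the third replicate). The labels do not say whether replicates of a group were separate animals, so the tests measure the spread between these kidneys.

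A B cell builds its heavy chain gene by joining 1 variable segment to a diversity and a joining segment, and the transcript of that joined gene carries the chosen variable segment in its sequence. The segments are grouped by sequence into families, of which Ighv1, called J558, is the largest in the mouse and lies furthest from the constant regions with most of its members. Plasma cells, the antibody-secreting descendants of B cells, hold much more of this RNA per cell than resting B cells do. In a whole-kidney library, more cells of the lineage and more RNA per cell cannot be told apart.

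The segments are similar in sequence, which matters for reading their levels. The coding stretch of the 4 leading Ighv1 members, from the first base after the leader peptide to the end of the segment, is shown from the GENCODE M21 transcripts (GRCm38), with capitals at the positions where the 4 differ from one another.

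Ighv1-26: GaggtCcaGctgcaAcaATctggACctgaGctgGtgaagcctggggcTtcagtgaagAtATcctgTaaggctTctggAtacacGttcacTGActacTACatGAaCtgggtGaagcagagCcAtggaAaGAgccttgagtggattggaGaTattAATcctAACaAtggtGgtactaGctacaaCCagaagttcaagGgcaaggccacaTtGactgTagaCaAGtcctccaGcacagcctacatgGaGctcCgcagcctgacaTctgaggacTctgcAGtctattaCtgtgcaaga
Ighv1-53: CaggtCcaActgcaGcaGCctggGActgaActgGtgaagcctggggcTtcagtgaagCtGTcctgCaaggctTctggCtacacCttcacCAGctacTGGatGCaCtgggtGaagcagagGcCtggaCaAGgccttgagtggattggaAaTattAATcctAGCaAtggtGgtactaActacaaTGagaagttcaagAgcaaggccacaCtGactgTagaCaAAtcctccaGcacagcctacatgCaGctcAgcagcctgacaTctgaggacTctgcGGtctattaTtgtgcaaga
Ighv1-18: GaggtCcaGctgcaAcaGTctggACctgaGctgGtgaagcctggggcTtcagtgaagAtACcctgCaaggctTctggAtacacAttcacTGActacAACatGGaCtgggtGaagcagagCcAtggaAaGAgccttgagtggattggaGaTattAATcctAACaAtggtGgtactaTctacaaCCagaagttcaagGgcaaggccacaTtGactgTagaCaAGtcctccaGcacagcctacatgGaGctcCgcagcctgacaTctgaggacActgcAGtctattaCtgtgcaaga
Ighv1-9: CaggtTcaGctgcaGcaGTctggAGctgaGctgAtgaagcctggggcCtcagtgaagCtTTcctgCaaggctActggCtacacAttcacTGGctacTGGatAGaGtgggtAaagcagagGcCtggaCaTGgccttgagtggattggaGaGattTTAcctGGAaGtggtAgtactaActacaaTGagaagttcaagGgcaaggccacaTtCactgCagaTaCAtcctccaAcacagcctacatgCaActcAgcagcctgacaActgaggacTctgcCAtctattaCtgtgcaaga

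These genes lie on the minus strand of chromosome 12 in GRCm38, Ighv1-26 at chr12:114788372-114788805, Ighv1-53 at chr12:115158403-115158835, Ighv1-18 at chr12:114682632-114683065 and Ighv1-9 at chr12:114583569-114584002. The 4 sequences of 294 bases differ at 62 positions. Ighv1-26 and Ighv1-18 differ at 8 bases (97.3% identity), whereas Ighv1-26 and Ighv1-53 differ at 36 (87.8% identity). Over whole transcripts, each member was compared with the other functional rows and with Ighv rows of another annotation class, IG_LV_gene. The median identity of a member to its nearest row was 91.9%. Of the 62 members, 43 had no stretch of 100 bases, the read length, in common with another Ighv row, pseudogenes included. The least distinct member shared all but 9.68% of its stretches with another row. Every stretch of Ighv1-18 and Ighv1-9 was unique, as were 92.1% of those of Ighv1-26 and 97.6% of those of Ighv1-53. Somatic mutation of a rearranged segment is not visible in gene-level values, and its part in which row received a read was not tested.

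The second pair is shown because Ighv14-2 was the highest segment in every kidney taken 24 to 72 hours after IRI. It and its nearest relative, Ighv14-1, differ at 9 of 294 bases (96.9% identity), given in capitals.

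Ighv14-2: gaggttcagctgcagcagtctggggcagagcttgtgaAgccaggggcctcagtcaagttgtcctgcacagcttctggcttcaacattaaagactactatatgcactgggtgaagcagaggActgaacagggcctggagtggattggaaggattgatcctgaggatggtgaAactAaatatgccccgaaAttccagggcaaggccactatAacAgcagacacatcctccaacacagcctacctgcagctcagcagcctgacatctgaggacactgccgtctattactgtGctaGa
Ighv14-1: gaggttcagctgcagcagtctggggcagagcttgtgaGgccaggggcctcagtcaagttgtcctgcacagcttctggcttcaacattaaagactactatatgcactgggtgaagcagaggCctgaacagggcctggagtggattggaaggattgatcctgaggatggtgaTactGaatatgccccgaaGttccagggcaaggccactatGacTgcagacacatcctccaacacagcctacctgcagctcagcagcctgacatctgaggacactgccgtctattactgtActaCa

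Ighv14-2 lies at chr12:113994469-113994898 and Ighv14-1 at chr12:113931953-113932382, both on the minus strand of GRCm38. Every stretch of 100 bases of Ighv14-2 was unique among the 91 rows.

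Library depth differed between sets of kidneys. It was 10622803 to 23705668 fragments in the NORM and IRI6m kidneys, 38223879 to 52268698 in the kidneys from 2 hours to 28 days, and 70202281 to 88551832 in SHAM12m and IRI12m, as recovered from the spacing of low FPKM values. Fragments on the 91 rows ranged from 10 in a SHAM24h kidney to 85046 in an IRI12m kidney. Segment use was best counted in SHAM12m, IRI6m and IRI12m, with at least 1330 fragments per kidney. NORM9m had 117 to 367, NORM15m 535 to 772 and IRI28d 303 to 1106 fragments. The summed level of 4 proximal tubule markers was at least 3661 FPKM in every kidney.

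The summed Ighv level was low in young and acutely injured kidneys, higher with age, and highest in the months after IRI. It was 4.05, 3.56 and 5.37 FPKM in NORM3m, 45.8, 21.0 and 34.1 FPKM in NORM9m, and 89.7, 72.7 and 97.8 FPKM in NORM15m. The 3 ages did not overlap, and the mean log2 level was 2.88 higher at 9 months (7.36-fold) and 4.30 higher at 15 months (19.7-fold) than at 3 months. SHAM12m kidneys, from mice about as old as NORM15m, held 209, 101 and 108 FPKM, all above the NORM15m kidneys.

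In the first 3 days after IRI the sum stayed within a few FPKM. It was 15.4, 6.14 and 8.71 FPKM in SHAM4h, against 1.29, 2.26 and 1.23 FPKM in IRI2h and 4.79, 2.5 and 7.11 FPKM in IRI4h. IRI2h was lower than SHAM4h in every kidney (log2 difference -2.54), but SHAM4h itself stood above the SHAM24h kidneys, at 2.26, 0.630 and 2.82 FPKM. The sum was 2.5 to 3.31 FPKM in IRI24h, 1.85 to 2.93 FPKM in IRI48h and 2.02 to 6.79 FPKM in IRI72h, each overlapping SHAM24h.

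From 7 days on, every kidney was above every SHAM24h kidney. The sum was 8.41, 5.25 and 5.58 FPKM in IRI7d, 27.1, 3.87 and 8.08 FPKM in IRI14d, and 18.0, 56.6 and 51.0 FPKM in IRI28d, with mean log2 differences from SHAM24h of 1.89, 2.49 and 4.45. No sham kidneys were taken at these days, so time after any surgery and IRI cannot be told apart there.

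In the IRI6m kidneys the sum reached 153, 262, 373 and 1984 FPKM, above all NORM9m kidneys, with a log2 difference of 3.69 (12.9-fold). In the IRI12m kidneys it reached 2239, 1175 and 3360 FPKM, above all SHAM12m and all NORM15m kidneys, with log2 differences of 3.97 (15.7-fold) and 4.59 (24.0-fold). IRI6m overlapped both SHAM12m, at a log2 difference of 1.66, and IRI12m, which was 2.32 higher. The IRI6m and NORM9m libraries were both shallow, and the IRI12m and SHAM12m libraries both deep.

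**Figure D1:**
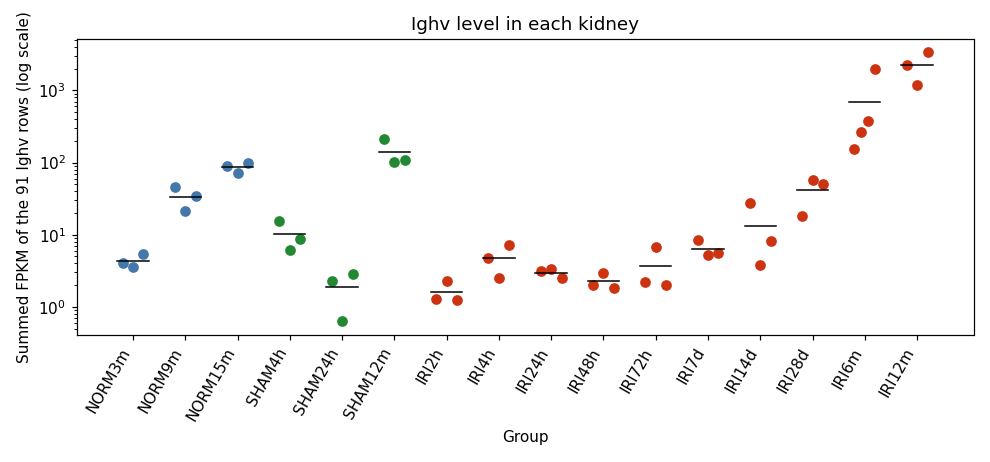
Summed FPKM of the 91 Ighv rows in each of 49 kidneys by group, on a log axis, with 1 point per kidney and a bar at the group mean. The IRI12m kidneys sit between 1175 and 3360 FPKM and the SHAM12m kidneys between 101 and 209 FPKM.

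Other transcripts of the B cell lineage followed the sum only in part. The B cell list of 10 genes includes Ms4a1 (CD20) and the antigen receptor subunit Cd79a. It summed to 3.50 to 82.9 FPKM in IRI6m and 10.6 to 71.0 FPKM in IRI12m. In SHAM12m it was at 1.65 to 2.45 FPKM, in NORM9m at 2.31 to 4.33 FPKM and in NORM3m at 1.63 to 2.48 FPKM. IRI6m thus overlapped NORM9m, and SHAM12m overlapped NORM3m, whose Ighv sum was far lower. A germinal centre list of 5 genes was at 10.6 to 16.8 FPKM in IRI6m, below NORM9m at 18.2 to 22.4 FPKM. In IRI12m it was at 6.94 to 17.1 FPKM and overlapped SHAM12m, at 5.62 to 11.95 FPKM. The germinal centre list was at 3.829 FPKM or more in every kidney. It summed to 11.02 to 11.28 FPKM in IRI48h, where Ms4a1 was at 0 in all 3 kidneys. These sums thus cannot be read as germinal centre RNA alone, and a change in germinal centre cells was not tested. The plasma cell list (10 of 11 genes found, such as Mzb1 and Prdm1) summed to 180 to 918 FPKM in IRI6m and 309.5 to 622 FPKM in IRI12m. SHAM12m, at 106 to 187 FPKM, overlapped IRI6m. This list was at 78.9 FPKM or more in every kidney. In IRI48h it was at 118 to 133 FPKM, while Igkc, the kappa light chain constant region, was at 0.315 to 0.971 FPKM. Its sum thus cannot be read as plasma cell RNA alone. A list of 5 genes of lymph node stroma and vessels includes the chemokines Ccl19, Ccl21a and Cxcl13. It summed to 12.5 to 65.5 FPKM in IRI6m and 9.60 to 24.4 FPKM in IRI12m. In SHAM12m it was at 3.47 to 4.26 FPKM, in NORM9m at 6.16 to 13.6 FPKM and in NORM15m at 6.47 to 10.45 FPKM. IRI12m was thus above SHAM12m but overlapped NORM15m, and IRI6m overlapped NORM9m. The part of lymphoid tissue taken with the kidney in these levels was not tested. Genes of V(D)J recombination and pre-B cells, such as Rag1 and Vpreb1, stayed between 0.182 and 3.09 FPKM in all 49 kidneys.

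Across genes, limma was fitted to log2(FPKM + 0.1) of 14895 genes in all 49 kidneys, with Benjamini-Hochberg adjustment. The members were chosen on these values, so their counts are a description. Backgrounds are shares of all genes called in the main fit, and counts from other fits are given without one. Of the 62 members, 52 were called higher in IRI6m than in NORM9m (background 6.25% of genes tested), with a median log2 difference of 3.62 against 0.04 over all genes. The count was 17 when only these 2 groups were fitted. In IRI12m, 46 were called higher than in SHAM12m (background 8.44%), with a median of 3.40 against 0.05, and 38 were called without the SHAM12m kidney whose labels disagree. The count was 14 at a pseudocount of 0.01 and 28 when only these 2 groups were fitted. None was called lower in either (backgrounds 2.07% and 0.369%; unadjusted p under 0.05 in 0 of 62 for both).

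The counts were much smaller at early times. No member was called higher in IRI2h (background 22.1%) or IRI4h (17.7%), where 0 and 1 had an unadjusted p under 0.05, and 1 was called higher in each of IRI24h (32.5%), IRI48h (28.5%) and IRI72h (25.4%). The count was 2 in IRI7d (33.8%), 4 in IRI14d (30.9%) and 14 in IRI28d (22.3%), and at none of these times was the share of members called above that of all genes by more than 1 percentage point. The SHAM12m kidneys had 19 members above NORM15m (18.2%), NORM15m had 21 above NORM3m (5.47%), IRI12m had 30 above IRI6m (17.9%), and IRI6m had 25 above SHAM12m (30.4%). The only members called lower were Ighv6-3 in IRI2h (background 17.9%) and Ighv7-4 in IRI12m against IRI6m (16.2%). No member was called lower in IRI4h (background 10.5%), IRI24h (15.4%), IRI48h (23.1%), IRI72h (23.1%), IRI7d (14.5%), IRI14d (18.9%), IRI28d (9.86%), NORM15m against NORM3m (3.44%), SHAM12m against NORM15m (17.4%) or IRI6m against SHAM12m (20.9%), and at an unadjusted p under 0.05 there were 2 in IRI4h, 1 in IRI6m against SHAM12m and 0 in the others.

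Ighv14-2, a segment of the small SM7 family, was the member called in IRI24h, IRI48h and IRI72h. It was at 0.0617, 0.137 and 0.144 FPKM in SHAM24h, which is 1 or 2 fragments per library. It was at 1.23, 1.04 and 1.63 FPKM in IRI24h, 1.54, 2.69 and 1.22 FPKM in IRI48h, and 1.10, 2.41 and 1.10 FPKM in IRI72h, or 16 to 46 fragments per library. Every injured kidney of these days was above every SHAM24h kidney.

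The difference from SHAM24h on the log2(FPKM + 0.1) scale was 2.71 ± 0.78 (SE) in IRI24h, 3.11 ± 0.78 in IRI48h and 2.86 ± 0.78 in IRI72h, with limma adjusted p of 0.00426, 0.0011 and 0.00266. In IRI7d it was 3.00 ± 0.78 (adjusted p = 0.00173 by limma), with 1.32, 2.01 and 1.48 FPKM. Ighv14-2 reached 1 FPKM in 14 kidneys outside these groups, so these kidneys did not decide its membership. It was at 0 to 0.125 FPKM in IRI2h and IRI4h, the 2 earliest groups. With a pseudocount of 1 in place of 0.1, none of these 4 calls passed, with log2 differences of 1.04 to 1.31 and adjusted p of 0.0591 to 0.142 by limma.

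The other 90 rows did not follow it. The IG_LV_gene rows, outside these shares, held 48.7% of the sum of both classes in the third IRI24h kidney. In the other kidneys of 24 to 72 hours they held 6.34% to 16.7%. Ighv14-2 made up 31.3% to 65.3% of the summed Ighv level in IRI24h and 35.5% to 54.2% in IRI72h. In IRI48h, Ighv14-2 made up 75.8%, 92.0% and 66.1% of the summed Ighv level (24 of 32, 46 of 50 and 21 of 32 fragments), and the other 90 rows together were at 0.234 to 0.625 FPKM against 0.493 to 2.68 FPKM in SHAM24h. The Wilson 95% interval of the share of fragments in the second kidney was 81.2% to 96.8%, and covers counting error only. Its close relatives Ighv14-1 and Ighv14-3 were at 0 in all 3 IRI48h kidneys, and Ighv14-4 was at 0 in 2 of them and at 0.058 FPKM in the other.

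Other genes of the antibody lineage were read in the same kidneys. Igkc, the constant region of the kappa light chain, was at 0.315 to 0.971 FPKM in IRI48h and 2.89 to 8.89 FPKM in SHAM24h. Of the B cell markers, Ms4a1 and the transcription factor Pax5 were at 0 in all 3 IRI48h kidneys, and Cd79a was at 0 to 0.0699 FPKM, against 0.237 to 0.296 FPKM in SHAM24h. Cd79b, the other receptor subunit, was at 0.470 to 0.732 FPKM against 0.316 to 0.586 FPKM, and Bank1, an adaptor of the receptor, at 0.0188 to 0.0443 FPKM against 0.0369 to 0.0466 FPKM, so both overlapped. The whole list of 10 summed to 0.667 to 0.974 FPKM in IRI48h and 1.39 to 1.61 FPKM in SHAM24h. Whether the fragments on Ighv14-2 came from a joined heavy chain gene was not tested.

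The share of Ighv14-2 was lower at later times while its level stayed near 1 FPKM. It was 15.7% to 38.4% of the sum in IRI7d, 3.79% to 15.7% in IRI14d (0.496 to 1.03 FPKM) and 2.04% to 7.27% in IRI28d (1.04 to 1.31 FPKM). In IRI14d and IRI28d the log2 differences from SHAM24h were 1.89 and 2.60 (adjusted p = 0.0432 and 0.00947 by limma). With a pseudocount of 1 neither call passed (log2 differences 0.61 and 0.96, adjusted p = 0.403 and 0.214 by limma), and neither passed after quantile normalization (1.33 and 1.93, adjusted p = 0.177 and 0.0627 by limma). The IRI14d call was lost when any 1 of its 6 kidneys was left out (adjusted p 0.0535 to 0.143). In the months after IRI, Ighv14-2 was at 1.57 to 59.5 FPKM in IRI6m and 39.6 to 108 FPKM in IRI12m against 0.674 to 1.08 FPKM in SHAM12m, as part of the broad increase.

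**Figure D2:**
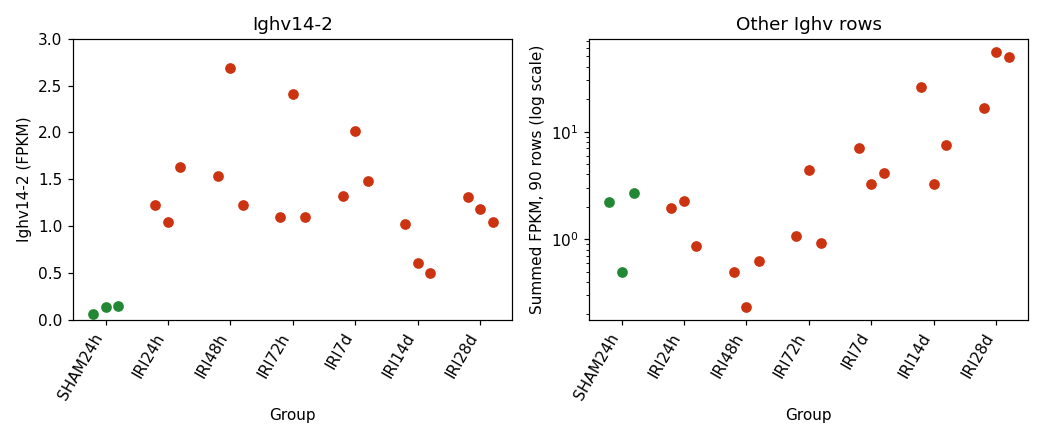
FPKM of Ighv14-2 (left, linear axis) and summed FPKM of the other 90 Ighv rows (right, log axis) in SHAM24h and in IRI24h to IRI28d, with 1 point per kidney. In IRI48h Ighv14-2 was at 1.22 to 2.69 FPKM while the other rows were at 0.234 to 0.625 FPKM.

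The evenness of segment use was measured as the effective number of segments, the inverse Simpson index of the FPKM shares over the 91 rows, which is 1 when a single segment takes everything and grows as use spreads over more segments. It was 8.39, 8.87 and 7.32 in NORM9m and 7.94, 9.53 and 12.3 in NORM15m. In SHAM12m it was 25.1, 25.8 and 24.6, outside the range of both unoperated groups. In IRI6m it was 32.2, 17.0, 23.2 and 16.4, and in IRI12m it was 9.10, 13.4 and 6.71.

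The IRI6m kidneys were thus more even than their unoperated controls, and the IRI12m kidneys less even than their sham controls. The mean difference was 14.0 segments for IRI6m against NORM9m (exact permutation p = 0.0286, two-sided, the smallest that 4 against 3 allows, adjusted p = 0.15 over 6 comparisons). It was -15.4 for IRI12m against SHAM12m, where 3 against 3 cannot go below p = 0.10 by the exact test. The 2 differences were opposite in sign and their mean was -0.70 (exact permutation p = 0.906 over 700 arrangements within the 2 pairs of groups). The difference between them was 29.4 segments (exact permutation p = 0.00143, the smallest that 700 arrangements allow), and 29.7 without the SHAM12m kidney whose labels disagree. Labels were shuffled within each pair, so this test starts from no difference in either pair, not from equal differences.

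The control groups differed from each other as much as the injured groups did. SHAM12m exceeded NORM15m by 15.2 segments, while IRI12m and NORM15m differed by -0.17 (exact permutation p = 0.9). IRI6m and SHAM12m overlapped (difference -2.96, exact permutation p = 0.429). NORM15m libraries were shallow and SHAM12m libraries deep, so the surgery of the control and the set of libraries it was sequenced with cannot be told apart. At an equal 100 Ighv fragments per kidney the effective number was 20.4 to 21.1 in SHAM12m, 6.61 to 12.4 in IRI12m, 14.7 to 25.3 in IRI6m, 7.18 to 8.96 in NORM9m and 7.75 to 11.3 in NORM15m, so the gap between SHAM12m and NORM15m was present at equal fragment number too.

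**Figure D3:**
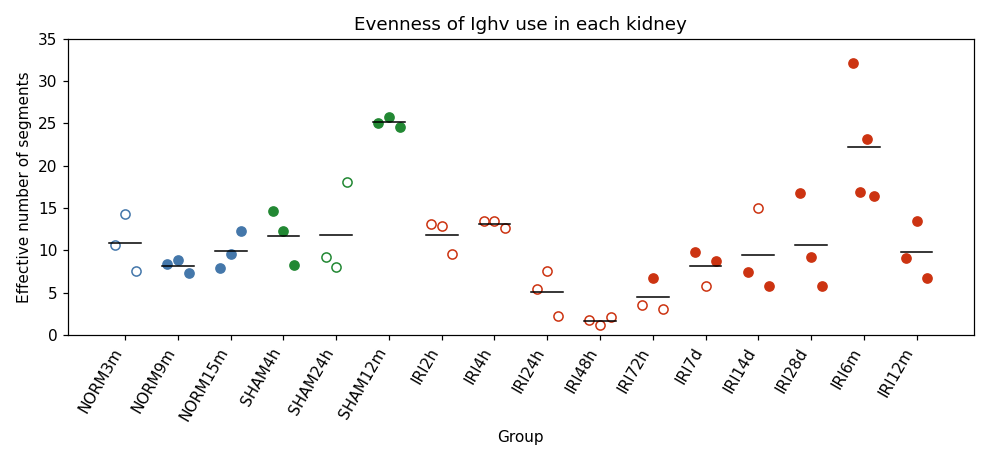
Effective number of Ighv segments (inverse Simpson index over 91 rows) in each kidney by group, with 1 point per kidney, open where it had under 100 Ighv fragments, and a bar at the group mean. The 3 SHAM12m kidneys sit between 24.6 and 25.8 and the 3 IRI12m kidneys between 6.71 and 13.4.

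The antibody classes in the same kidneys also split the controls. Igha, the constant region of IgA, made up 84.1% to 92.5% of the summed heavy chain constant regions in SHAM12m, against 9.15% to 34.5% in NORM9m, 14.8% to 23.0% in NORM15m and 14.9% to 21.3% in IRI12m. In IRI6m it was 62.4%, 39.0%, 61.7% and 8.0%, and the fourth kidney, the one with the highest sum, had 72.5% from IgG constant regions. The kappa light chain segments had an effective number over 98 rows of 25.3 to 27.1 in SHAM12m, 21.5 to 32.4 in IRI6m, 7.29 to 16.9 in IRI12m, 10.5 to 21.8 in NORM9m and 13.8 to 17.9 in NORM15m. SHAM12m was again above IRI12m in every kidney, while IRI6m overlapped NORM9m.

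The leading members were few and mostly of family Ighv1. Over the 7 kidneys of IRI6m and IRI12m, each weighted equally, Ighv1-26 took 12.3% of the sum on average and Ighv1-53 took 12.2%. They were followed by Ighv1-18 at 6.92%, Ighv1-9 at 4.98%, Ighv1-39 at 4.19%, Ighv3-6 at 3.57%, Ighv6-3 at 3.15%, Ighv9-3 at 2.97%, Ighv5-17 at 2.47% and Ighv1-55 at 2.28%. Ighv1-26 was among the 10 highest segments in 7 of 7 of these kidneys and in 8 of the 9 kidneys of NORM9m, NORM15m and SHAM12m, and Ighv1-53 in 7 of 7 and 9 of 9.

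Ighv1-26 was at 11.1, 47.0, 46.0 and 329 FPKM in IRI6m and at 379, 89.8 and 253 FPKM in IRI12m. It was at 0.386, 2.74 and 7.57 FPKM in NORM9m, 14.0, 7.43 and 9.94 FPKM in NORM15m and 12.5, 8.60 and 12.7 FPKM in SHAM12m. All IRI6m kidneys were above NORM9m and all IRI12m kidneys above SHAM12m, and it was the highest segment in all 4 IRI6m kidneys, at 7.25%, 17.9%, 12.3% and 16.6% of the sum.

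Ighv1-53 was the highest segment in all 3 NORM15m kidneys (28.1%, 27.2% and 17.4%) and in 2 of the 3 IRI12m kidneys (25.9% and 20.2%). It was at 25.2, 19.8 and 17.0 FPKM in NORM15m, 8.78, 7.17 and 7.97 FPKM in SHAM12m, and 579, 237 and 272 FPKM in IRI12m. In IRI6m Ighv1-53 was at 10.1, 26.1, 31.7 and 117 FPKM, against 13.0, 0.730 and 1.82 FPKM in NORM9m, so IRI6m and NORM9m overlapped.

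Ighv1-18 was led by 1 kidney. It was at 1203 FPKM in the third IRI12m kidney, or 29725 of 85046 Ighv fragments (34.95%, Wilson 95% interval 34.6% to 35.3%), and at 38.0 and 27.6 FPKM in the other 2. In IRI6m it was at 2.65, 5.22, 8.61 and 51.3 FPKM, and it stayed between 0.303 and 3.30 FPKM in NORM9m, NORM15m and SHAM12m. No other kidney held Ighv1-18 above 51.3 FPKM.

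The remaining leaders varied in which kidney held them. Ighv1-9 was at 4.70, 16.8, 22.1 and 211 FPKM in IRI6m and 30.8, 55.4 and 90.3 FPKM in IRI12m, against 24.3, 7.97 and 4.52 FPKM in SHAM12m. Ighv1-39 was at 1.08, 4.04, 7.53 and 131 FPKM in IRI6m and 127, 133 and 48.6 FPKM in IRI12m, against 4.64, 2.18 and 5.70 FPKM in SHAM12m. For both, all IRI12m kidneys were above all SHAM12m kidneys. IRI6m overlapped NORM9m, which was at 4.12, 5.11 and 0.606 FPKM for Ighv1-9 and at 4.25, 0 and 0.454 FPKM for Ighv1-39.

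Leaders outside family Ighv1 showed the same separation of IRI12m from SHAM12m. Ighv3-6, of the family called 36-60, was at 42.9, 47.5 and 127 FPKM in IRI12m against 6.41, 2.19 and 1.55 FPKM in SHAM12m. Ighv6-3, of the J606 family, was at 29.7, 60.5 and 45.7 FPKM against 5.11, 2.03 and 2.01 FPKM. Ighv9-3, of the VGAM3.8 family, was at 33.4, 53.3 and 88.3 FPKM against 3.30, 5.47 and 3.17 FPKM. Ighv5-17 was at 36.8, 22.2 and 34.0 FPKM against 7.14, 4.05 and 6.55 FPKM. In each of these 4, no SHAM12m kidney reached an IRI12m kidney. All leaders were chosen for their share in IRI6m and IRI12m, where the whole sum was higher, so their separation is a description.

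The highest members of other families were compared in the same way. They too were chosen by their share in IRI6m and IRI12m, so these values are a description. Ighv2-2 (family Q52) was at 24.5, 3.07 and 18.0 FPKM in IRI12m against 3.76, 1.94 and 1.83 FPKM in SHAM12m, where the groups overlapped. Ighv8-8 was at 54.5, 13.2 and 30.1 FPKM against 1.02, 1.87 and 0.838 FPKM. Ighv4-1 was at 2.49, 30.1 and 18.4 FPKM against 1.65, 1.41 and 0.655 FPKM. Apart from Ighv2-2, these sets did not overlap. Ighv13-1 was at 6.46, 2.44 and 10.7 FPKM against 0.263, 0.387 and 0.278 FPKM, and Ighv7-3 at 7.81, 5.65 and 16.9 FPKM against 1.41, 3.24 and 0.751 FPKM, again without overlap.

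A further set was named for its known use in mouse B cells. Ighv7-1, used by phosphorylcholine-binding T15 antibodies, was at 0.740 to 2.93 FPKM in IRI6m and 0.686 to 4.31 FPKM in IRI12m, and its highest value was 10.7 FPKM in a SHAM12m kidney. Ighv11-2 and Ighv12-3, used by B-1 cells that bind phosphatidylcholine, each peaked in 1 IRI6m kidney, at 8.59 and 4.19 FPKM. Ighv5-2, known as VH81X and favoured early in B cell development, was at 0.242 to 0.269 FPKM in IRI12m and at 0 in every other kidney. Of these 4 rows, Ighv12-3 and Ighv5-2 were outside the threshold.

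**Figure D4:**
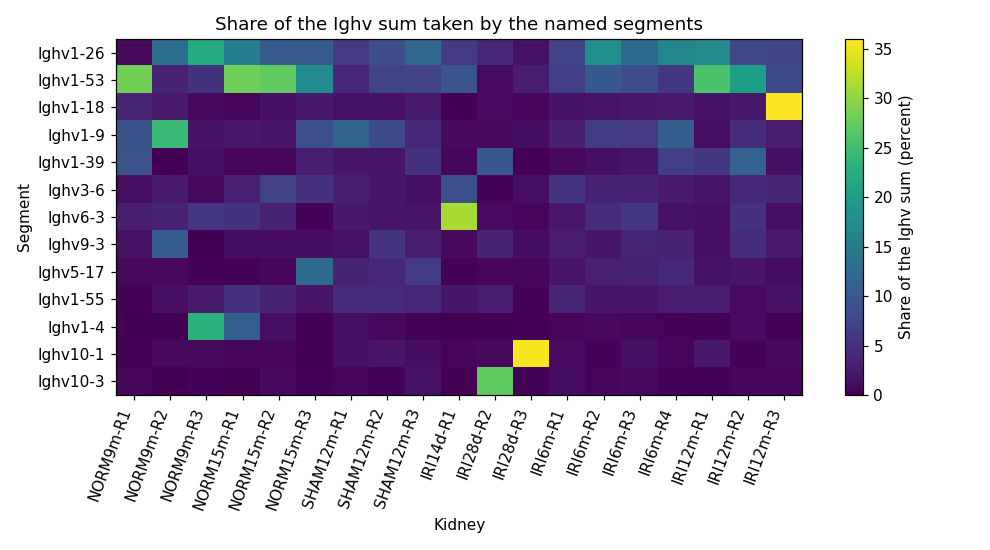
Share of the summed Ighv FPKM, in percent, taken by 13 named segments (10 with the highest mean share months after IRI, and each further leader of a kidney) in each of the 19 kidneys whose sum was at least 20 FPKM. Ighv1-18 took 35.8% in the third IRI12m kidney, and Ighv1-53 led all 3 NORM15m kidneys.

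Kidneys taken at 14 and 28 days each had their own leader. Ighv6-3 took 31.3% of the sum in the first IRI14d kidney, at 8.48 FPKM, and was at most 0.30 FPKM in the other 2. Ighv10-3, a VH10 segment, took 27.3% in the second IRI28d kidney at 15.4 FPKM and was at 0.290 and 0.215 FPKM in the others. Its relative Ighv10-1 took 35.5% in the third at 18.1 FPKM and was at 0.427 and 0.548 FPKM in the others. No segment led 2 of these kidneys.

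The similarity of segment use between kidneys was described by the Pearson correlation of the 91 shares, with no test since rows share a library and an annotation. Within groups it was 0.635 to 0.924 over the 6 pairs of IRI6m kidneys, 0.578 to 0.755 in SHAM12m and 0.691 to 0.891 in NORM15m, with 3 pairs each, but only 0.257 to 0.283 in NORM9m. In IRI12m it was 0.869 for the most similar pair and 0.306 to 0.317 for the other 2 pairs, and the IRI28d kidneys numbered 2 and 3 had a correlation of -0.008. The third IRI12m kidney reached at most 0.357 with any of the 18 other kidneys. The 10 highest segments by group mean were shared in 8 of 10 between IRI6m and SHAM12m, 7 of 10 between IRI6m and IRI12m, 6 of 10 between SHAM12m and IRI12m, and 5 of 10 between NORM15m and IRI12m. They were shared in 7 of 10 between NORM9m and IRI12m and between NORM15m and IRI6m, and in 6 of 10 between NORM9m and IRI6m.

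Family shares were tested for 15 families over all 91 rows with exact permutation tests and Benjamini-Hochberg adjustment. Averaged over the 2 pairs of groups, none of the 15 shares changed (1 had an unadjusted p under 0.05, Ighv8, with a difference of 1.33 percentage points and an adjusted p of 0.6 by the exact permutation test). For the difference between the 2 pairs, with labels again shuffled within each pair, 2 families passed. The share of Ighv1 was 53.8% to 82.0% in NORM9m and 48.2% to 59.3% in IRI6m, and 49.9% to 57.6% in SHAM12m and 63.4% to 69.0% in IRI12m, so the mean difference was -17.55 percentage points in the first pair and 11.05 in the second. The difference between the 2 was -28.6 points (adjusted p = 0.0429, exact permutation).

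The Ighv5 share moved in the opposite way. It was 1.62% to 3.70% in NORM9m and 6.09% to 9.29% in IRI6m, and 9.22% to 13.5% in SHAM12m and 4.75% to 8.78% in IRI12m. The mean differences were 5.06 and -5.19 percentage points, and the difference between them was 10.3 points (adjusted p = 0.0214, exact permutation). With NORM15m in place of SHAM12m neither family passed, and the Ighv5 share ranged from 0.917% to 21.8% within NORM15m. Neither family passed without the highest segment of each kidney or with 22 further Ighv rows that the annotation puts in another class, IG_LV_gene, added after seeing the data (-18.4 and 6.97 points, adjusted p = 0.0929 and 0.0643, exact permutation), and at least 1 of the 2 calls was lost in 9 of 13 leave-one-out fits. Both passed without the SHAM12m kidney whose labels disagree, at -30.0 and 10.2 points (adjusted p = 0.0429 for each, exact permutation).

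**Figure D5:**
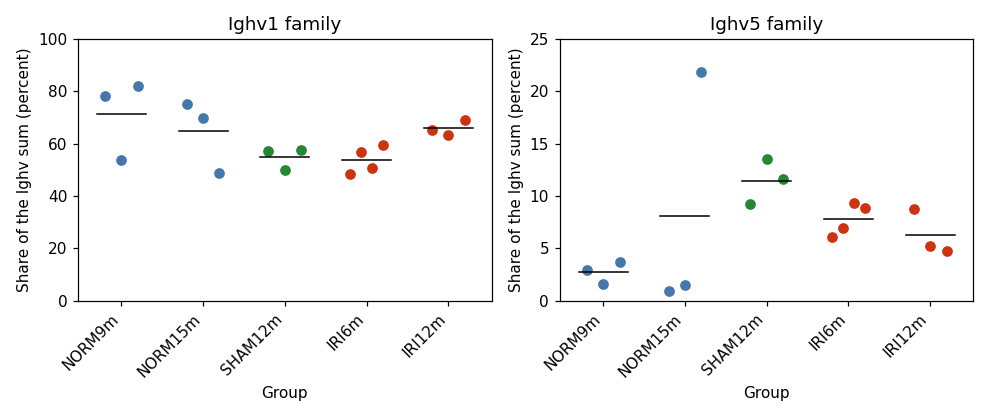
Share of the summed Ighv FPKM, in percent, taken by families Ighv1 and Ighv5 in each kidney of NORM9m, NORM15m, SHAM12m, IRI6m and IRI12m, with 1 point per kidney and a bar at the group mean. Ighv1 was at 49.9% to 57.6% in SHAM12m and 63.4% to 69.0% in IRI12m, and Ighv5 at 9.22% to 13.5% and 4.75% to 8.78%.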

How the data were processed

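Values were the authors' deposited FPKM for each of 49 kidneys, made from paired reads of poly(A) RNA (TruSeq, which does not mark strand) aligned with STAR 2.5.0b to mm10 with GENCODE M4, with duplicates removed; the tool that turned counts into FPKM was not given in the sources used here. Duplicate removal and near-identical segments could lower or divide the values of abundant segments. From these FPKM, fragments were recovered with GENCODE M21 transcript lengths: 90.9% to 94.5% of low values came out whole within 0.1. Genes with at least 1 FPKM in at least 3 kidneys were fitted with limma 3.58.1 (trend and robust, R 4.3.3) on log2(FPKM + 0.1), checked on simulated data. Exact permutation tests used numpy 2.4.6.

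The members and lists were chosen with earlier results of these data known. Named genes were the 10 members with the highest mean share in IRI6m and IRI12m, the highest segment of each kidney with a sum of at least 20 FPKM, the highest of each family, segments of known specificity, and those nearest the threshold. Alternatives are in the closing section.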

Additional observations from a re-analysis of the deposited data

Results flagged for a closer look

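The fourth IRI6m kidney stood apart from the other 3 in level. Its summed Ighv value was 1984 FPKM, and it held 328.8 FPKM of Ighv1-26, 51.29 of Ighv1-18, 211.1 of Ighv1-9, 131.5 of Ighv1-39, 52.97 of Ighv3-6, 66.03 of Ighv9-3, 82.54 of Ighv5-17, 58.54 of Ighv1-55 and 59.52 of Ighv14-2, each far above the next kidney relative to the range of the group. Of 29 values tested in this way 10 stood apart. The limit marks about 1 in 20 independent groups by chance only where values are normally distributed. The FPKM were tested without a log scale, so that rate need not hold for them. The values are not independent, since all FPKM of a kidney scale with its sum: among 13 members 9 stood apart by FPKM and 0 by share of the sum. The B cell list summed to 82.9 FPKM and the lymph node stroma list to 65.5 FPKM at their highest in this group. Their part in the level was not tested.

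The differences of the IRI groups from their controls were unlike between the 2 pairs of groups. They differed by 29.39 segments in evenness, -28.6 percentage points in the Ighv1 share and 10.26 points in the Ighv5 share. The control was unoperated in the first pair and sham in the second, so these are not effects of IRI alone. These were picked out because the difference between the pairs passed an exact permutation test. That test starts from no difference in either pair, not from equal differences.

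The 22 distal Ighv rows carried by a separate annotation class, outside the rule, held at least 308.2 FPKM in every IRI12m kidney. In SHAM12m they held at most 128 FPKM. The main comparisons above left these rows out, and only alternatives added them.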

How the results depend on the processing

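The log2 difference in summed level, averaged over the 2 pairs of groups, was 3.83 and stayed positive under 10 alternatives; with SHAM12m as the control of both it was 2.65, and leaving out 1 kidney gave 3.46 to 4.07. The evenness difference of -0.70 turned positive without the highest segment (2.57), with the distal rows (0.938, chosen after seeing the data), with NORM15m as control (6.91, exact permutation p = 0.0429) and as Pielou evenness (0.0354), was -8.29 with SHAM12m as the control of both (exact permutation p = 0.142), and spanned -2.36 to 0.258 in leave-one-out fits; it was positive without IRI6m 2, IRI6m 4 or IRI12m 3. The difference between the pairs spanned 26.1 to 31.3 in leave-one-out fits. Over 9 alternatives it kept its sign, with exact permutation p of 0.00143 to 0.0357. It leaned on the choice of control: IRI12m differed by -15.4 segments from SHAM12m but by -0.17 from NORM15m. Families averaged over pairs numbered 1 with NORM15m and 0 to 0 in leave-one-out fits. Families differing between pairs numbered 0 without the highest segment, with distal rows or with NORM15m, and 0 to 4 in leave-one-out fits; a call was lost without any of IRI6m 1, 2 or 3, NORM9m 1 or 3, IRI12m 1, 2 or 3 or SHAM12m 2, and 4 passed without IRI6m 4 or SHAM12m 1. The cause was not tested.

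Counts of called members depended on several settings. The share of all genes called is given beside only the last setting of this paragraph. For the others, the leave-one-out fits and the replicate block, the counts show only how calls moved. At a pseudocount of 1, they were 0 in IRI24h, IRI48h, IRI72h, IRI7d and IRI14d, 5 in IRI28d, 9 in SHAM12m against NORM15m, 5 in NORM15m against NORM3m, 0 lower in IRI2h and 2 lower in IRI12m against IRI6m. At 0.01, they were 2 in IRI24h, 8 in IRI7d, 8 in IRI14d, 24 in IRI28d, 7 in IRI6m and 14 in IRI12m against SHAM12m, 12 in IRI12m against IRI6m, 6 lower in IRI2h and 1 lower in IRI4h. Without the filter they were 1 in IRI7d, 2 in IRI14d and 0 lower in IRI2h. With quantile normalization they were 1 in IRI7d, 2 in IRI14d, 9 in IRI28d, 13 in NORM15m against NORM3m, 3 lower in IRI2h, 2 lower in IRI4h, 1 lower in IRI6m against SHAM12m and 2 lower in IRI12m against IRI6m. With only the 2 groups compared they were 2 in IRI24h, 2 in IRI72h, 7 in IRI7d, 17 in IRI6m against NORM9m, 13 in IRI6m and 28 in IRI12m against SHAM12m, 11 in NORM15m against NORM3m, 9 in IRI12m against IRI6m, and lower 4 in IRI2h and 1 each in IRI4h, IRI48h and SHAM12m. Members reaching the threshold without the kidneys compared (chosen after seeing the data) gave 16 of 34 higher and 0 lower in IRI12m against IRI6m. Of all genes passing that filter, 18.0% were called higher and 16.1% lower.

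Leaving out 1 kidney gave 1 to 6 in IRI14d, 1 to 2 in IRI7d, 9 (without IRI6m 4) to 29 in IRI6m against SHAM12m (0 to 2 lower), 10 (without SHAM12m 1) to 18 in SHAM12m against NORM15m, 11 (without NORM3m 3) to 19 in NORM15m against NORM3m, 17 (without IRI12m 3) to 43 higher and 1 to 2 lower in IRI12m against IRI6m, 0 to 5 lower in IRI2h and 0 to 2 lower in IRI4h. The Ighv14-2 difference between SHAM12m and NORM15m turned to 0.0488 at pseudocount 0.01 and 0.0943 after quantile normalization and spanned -0.71 to 0.98 in leave-one-out fits; IRI2h against SHAM4h spanned -0.61 to 0.0259.

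Replicate numbers did not pair kidneys: same-numbered deviations correlated at -0.158 to 0.0979. With a replicate block the level difference was 3.46, the evenness difference 0.258, and the calls 5 in IRI7d, 4 lower in IRI2h, and 9 higher and 2 lower in IRI6m against SHAM12m.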

Other observations

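The distal rows included Ighv1-72, the VH186.2 segment of responses to nitrophenyl in these mice, at 32.2, 16.8 and 77.1 FPKM in IRI12m against 10.5, 4.00 and 2.73 FPKM in SHAM12m, and at 3.74, 5.56, 8.34 and 36.7 FPKM in IRI6m. Ighv1-80 was at 42.6, 35.1 and 171 FPKM in IRI12m against 8.41, 2.10 and 4.72 FPKM in SHAM12m. Of the 22 rows, 16 reached the threshold used for the members, and 0 of the 59 Ighv pseudogene rows did. The pseudogenes summed to at most 2.69 FPKM in any kidney.

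In the third IRI12m kidney, Ighe, the constant region of IgE, was at 6.42 FPKM, against at most 0.637 FPKM in the IRI6m kidneys and 0.173 FPKM in the other IRI12m kidneys. The same kidney was the one in which Ighv1-18 took 35.8% of the sum. Ighv7-4 was at 5.12, 2.70, 2.81 and 2.61 FPKM in IRI6m and at no more than 0.488 FPKM in any SHAM12m or IRI12m kidney.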
